A study of Mus musculus with 3 samples.

Results

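Potassium channel genes were described in enteric neurons of *Ednrb*-/- mice, the mouse model of Hirschsprung disease. Every gene of the deposited single-cell table whose symbol starts with Kcn was taken, which gave 99 of 33353 genes. The symbols cover the pore-forming subunits (77 genes) and the auxiliary subunits, and also antisense transcripts named after a channel gene. By GENCODE M21, 94 of the 99 are protein-coding genes and 5 are antisense RNAs.

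Potassium channels let potassium ions leave the cell and hold the membrane near its resting potential. Voltage-gated Kv channels (Kcna to Kcnd, Kcnh and Kcnq) end action potentials and set how often a neuron fires. Kcnn and Kcnma1 channels are activated by calcium and Kcnt channels by sodium. Inward rectifiers (Kcnj) open near rest or through G proteins or ATP, and tandem-pore channels (Kcnk) carry the background leak.

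The data are 10x Genomics libraries from 3 mice at postnatal day 14, 1 library per mouse. All 3 mice were C57BL/6 by the labels, lacked *Ednrb* (endothelin receptor type B), and carried a tdTomato reporter switched on by Wnt1-Cre, which marks the neural crest lineage. The stock names in the paper give a mixed background for the *Ednrb* and reporter lines, so the mice may not be pure C57BL/6. The reporter allele also carries GCaMP5g. tdTomato-positive cells were sorted from the longitudinal muscle and myenteric plexus layer of the whole small intestine, and the table holds the cells the authors kept as neurons. There was no control genotype, so nothing below is an effect of the loss of *Ednrb*.

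Mice 1, 2 and 3 gave 354, 1050 and 656 cells with a median of 3734.5, 9599.5 and 9578.5 unique molecular identifiers (UMIs, each 1 RNA molecule read) per cell. The level of a gene is its UMIs per 10000 UMIs, pooled over the cells of a mouse, and it is not scaled by transcript length because each molecule is counted at 1 end. Mouse 1 was the shallowest and also held the highest summed level of 10 smooth muscle markers, at 65.9 UMIs per 10000 against 16 and 10.9 in the other mice. A total of 2 cell barcodes occurred in 2 libraries (4 cells).

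The 6 groups of cells were set by detection of 1 UMI. Nos1-only cells had *Nos1* (nitric oxide synthase) and no *Chat* (choline acetyltransferase), and numbered 130, 531 and 301 in mice 1, 2 and 3. Chat-only cells were the converse, at 16, 148 and 113 cells. Etv1-only cells had the transcription factor *Etv1* and no *Bnc2* (161, 594 and 320), and Bnc2-only cells the converse (28, 182 and 122). Nmu-positive cells had neuromedin U, a sensory neuron peptide (31, 80 and 89). Sox10-positive cells had *Sox10*, a glial and progenitor factor (148, 572 and 368). The groups share cells: 748 cells, 77.8% of the Nos1-only and 69.6% of the Etv1-only cells, were in both of these, and 131 cells were both Chat-only and Bnc2-only, so the comparisons of these pairs are not independent. In the markers left after the defining genes were set aside, the nitrergic list summed to 74.8 to 125 UMIs per 10000 in Nos1-only cells and to 3.46 to 16.5 in Chat-only cells, and the cholinergic list to 3.93 to 4.8 and to 9.37 to 14.2. Nmu-positive cells were no pure class: 42.5% were also Nos1-only and 47.5% Sox10-positive. In mice 1, 2 and 3 their nitrergic sum was 31.9, 71.0 and 36.4, against 34.1, 77.7 and 47.1 in cells with no *Nmu* UMI. The sum of 4 other sensory markers was 17.5, 4.15 and 9.53, against 0.889, 0.635 and 0.984.

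Neurons of all 3 mice held potassium channel RNA at similar summed levels. The 99 genes summed to 16.3, 15.2 and 16 UMIs per 10000 in mice 1, 2 and 3, or 15.8 ± 0.568 (SD, n = 3 mice), which was 0.156% of all UMIs (28487 UMIs). At least 1 UMI was seen for 90 of the 99 genes, and 51 had 50 UMIs or more. The 20 highest genes held 74.8% of the UMIs. In cells thinned to 3000 UMIs each, which put the libraries at 1 depth, the median cell held UMIs of 4, 3 and 4 Kcn genes in mice 1, 2 and 3. Unthinned medians were 5, 9 and 9, and so followed depth.

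**Figure D1:**
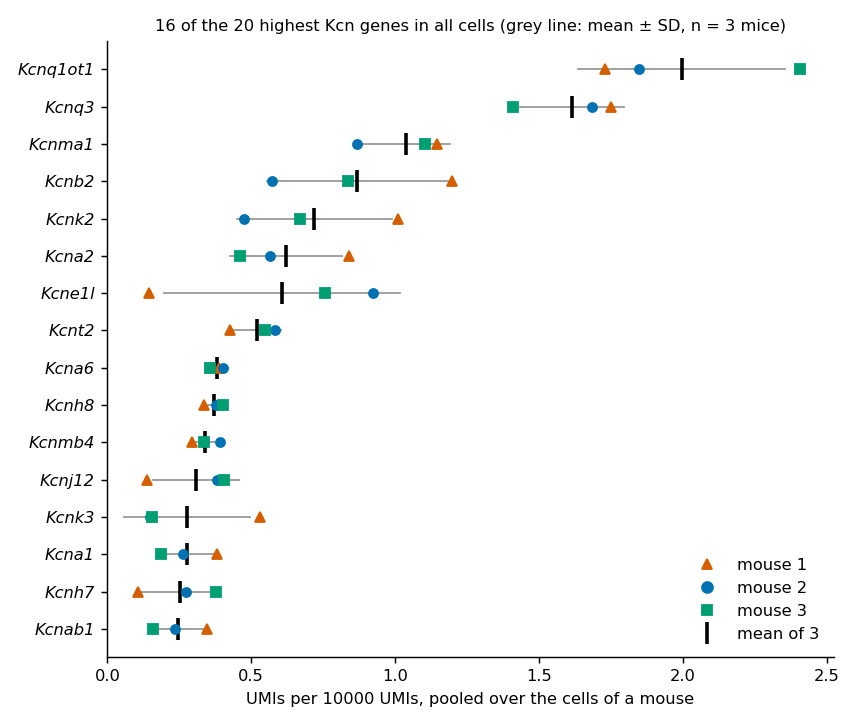
Level of 16 of the 20 highest Kcn genes in all cells of each mouse, in UMIs per 10000 UMIs (x axis), with a symbol per mouse, a black tick for the mean and a grey line for the SD (n = 3 mice). Kcnq1ot1 and Kcnq3 lead in each mouse, and Kcne1l is low in mouse 1 alone (0.144 against 0.922 and 0.755).

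The highest Kcn gene is not a channel. *Kcnq1ot1*, the long non-coding RNA that silences the imprinted genes around *Kcnq1* on the paternal chromosome, stood at 1.73, 1.85 and 2.41 UMIs per 10000. It lies antisense to *Kcnq1* (GENCODE M21, GRCm38, chr7:143203458-143296549, minus strand, inside the *Kcnq1* gene, chr7:143106362-143427042, plus strand), and *Kcnq1* itself had 0 UMIs in all 2060 cells, which allows a share of up to 0.146% of cells with a UMI. Whether the counting used strand is not given in the sources used here, so reads of the antisense RNA and of its partner cannot be told apart by this table.

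Among channel genes the Kv7 or M-current family led. *Kcnq3*, a subunit of the M channel that muscarinic receptors close, was at 1.75, 1.68 and 1.41 UMIs per 10000 in mice 1, 2 and 3. *Kcnq5*, a further Kv7 subunit, was at a mean of 0.246 ± 0.0317 (SD, n = 3), and below *Kcnq3* in every mouse.

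In the Shaker family, whose low-threshold channels line axons, *Kcna2* was highest at 0.839, 0.565 and 0.460 UMIs per 10000, followed by *Kcna6* at a mean of 0.381 ± 0.0222 and *Kcna1* at 0.276 ± 0.0980. In the Shab family of slow delayed rectifiers on cell bodies, *Kcnb2* was at 1.20, 0.571 and 0.836. The fast-spiking Shaw channel *Kcnc1* was at 0.233 ± 0.117. The A-type channel *Kcnd2*, which opens briefly below threshold, was even across mice at 0.229, 0.247 and 0.226. Of the EAG, ERG and ELK family, *Kcnh8* was at 0.371 ± 0.0345, *Kcnh7* at 0.252 ± 0.138 and *Kcnh2* at 0.174 ± 0.0109.

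The calcium-activated BK pore *Kcnma1* came after *Kcnq1ot1* and *Kcnq3* at 1.15, 0.868 and 1.10 UMIs per 10000, with its neuronal subunit *Kcnmb4* at 0.295, 0.390 and 0.337. The smooth muscle BK subunit *Kcnmb1* was near 0, with 32 UMIs, and was highest in mouse 1 (0.0721 against 0.0154 and 0.00780), the mouse with the most smooth muscle RNA. The sodium-activated channel *Kcnt2* was at 0.520 ± 0.0831 and *Kcnt1* at 0.161 ± 0.0268. The small-conductance channels *Kcnn3* and *Kcnn2* were at 0.148 ± 0.0591 and 0.0995 ± 0.0111, and the intermediate-conductance channel *Kcnn4*, a channel tied to the afterhyperpolarization of enteric sensory neurons, had 12 UMIs in all.

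Leak and inward rectifier channels were led by *Kcnk2* (TREK-1, opened by stretch and lipids) at 1.01, 0.476 and 0.671 UMIs per 10000 and by *Kcnj12* (Kir2.2) at 0.138, 0.380 and 0.405. *Kcnk3* (TASK-1) was high in mouse 1 alone, at 0.531 against 0.147 and 0.154. In the 51 cells of mouse 1 with at least 9 of the 10 smooth muscle markers it stood at 0.995, and its part in the level of mouse 1 was not tested. *Kcnj12*, *Kcne1l* (an X-linked Kv-modulating subunit) and *Kcnip3* ran the other way, with *Kcnip3* at 0.0131 in mouse 1 against 0.181 and 0.108. Genes that every mouse carried at like levels thus stood beside genes that 1 mouse set, and depth and smooth muscle RNA cannot be told apart from the mouse.

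A share of cells with a UMI followed depth, so shares are given at 3000 UMIs. *Kcnq3* was seen in 30.4% ± 1.86 of the thinned cells, *Kcnma1* in 25.3% ± 3.59, *Kcnb2* in 16.4% ± 1.95 and *Kcna2* in 16.4% ± 3.51 (SD, n = 3). The cells with 9 or more smooth muscle markers served as the comparison for free RNA. They were a class set after values were seen, of 51, 26 and 12 cells at a median depth of 6442 UMIs (all cells, 8202.5). They were no pure muscle: *Sox10* was seen in 27.5%, 42.3% and 100% of them, and neuronal markers summed to 23.9, 59.4 and 67.9 UMIs per 10000 in them. In the cells of this class that could be thinned (44 in mouse 1, which had the lowest neuronal sum), *Kcnq3* was in 15.9%, 16% and 33.3% of cells of mice 1, 2 and 3. There *Kcnb2* was in 11.4%, 0% and 16.7%, and *Kcna2* in 2.27%, 12% and 33.3%. *Kcnma1* was in 36.4%, 28% and 41.7% of them against 28.3%, 21.3% and 26.4% of all cells of the same mice. Its level in the unthinned class was 1.45, 0.533 and 0.699 UMIs per 10000. That was above the level of all cells in mouse 1 and below it in mice 2 and 3. The part of smooth muscle RNA in these values was not tested.

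A total of 9 Kcn genes had no UMI in any cell: *Kcna7*, *Kcna10*, *Kcnj1*, *Kcnj4*, *Kcnj15*, *Kcnj16*, *Kcnk16*, *Kcnk18* and *Kcnq1*. *Kcnj1* and *Kcnj16* are known from kidney and *Kcnk16* from pancreatic islets. A further 39 genes had 1 to 49 UMIs, among them the GIRK subunit *Kcnj9* with 13.

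Summed levels by family are described here for inward rectifiers of the GIRK type, for Kcnn and for Kv1. The 4 GIRK subunits, which Gi-coupled receptors such as opioid and muscarinic receptors open, summed to 0.610, 0.460 and 0.428 UMIs per 10000 in Nos1-only cells and to 0.520, 0.442 and 0.435 in Etv1-only cells. In Chat-only cells the sum was 0.151, 0.154 and 0.207, and in Bnc2-only cells 0.0702, 0.103 and 0.167. The lowest Nos1-only or Etv1-only mouse was thus above the highest Chat-only or Bnc2-only mouse, and the Nmu-positive cells (0.122, 0.206 and 0.221) lay with the latter. These sums are described with no test. *Kcnj3* and *Kcnj5* in this sum reach 50 UMIs only in the high groups, so the gap adds no support. The set is a part of the Kcnj genes. *Kcnj12*, outside the set, was at 0.148, 0.281 and 0.394 in Nos1-only cells against 0, 0.604 and 0.450 in Chat-only cells.

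The Kcnn sum ran the other way, at 0.132, 0.143 and 0.144 UMIs per 10000 in Nos1-only cells against 0.454, 0.349 and 0.468 in Chat-only cells, again with no overlap. Kv1 genes were highest in the Sox10-positive cells of each mouse, at 2.61, 1.78 and 1.43. The Kcnk sum was carried by mouse 1 in Nmu-positive cells (3.58 against 1.23 and 1.29). All Kcn genes together summed to 13.4 to 19.1 over the 6 groups and 3 mice.

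**Figure D2:**
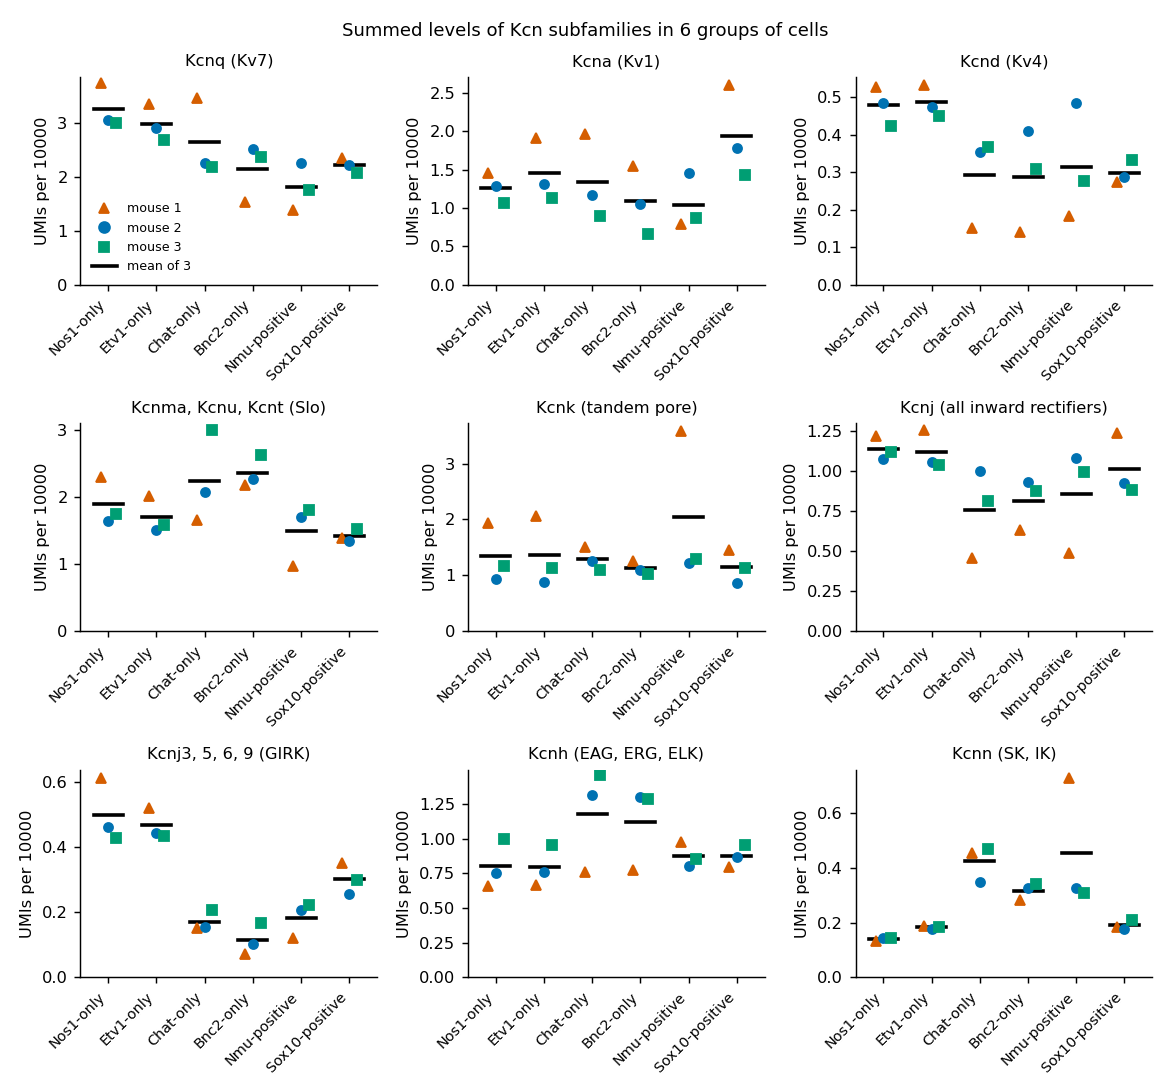
Summed level of 9 sets of Kcn genes in 6 groups of cells, in UMIs per 10000 UMIs (y axes start at 0 and differ between panels), with a symbol per mouse and a black line for the mean of the 3 mice. The GIRK sum of Nos1-only and Etv1-only cells (0.428 to 0.610) lies above that of Chat-only and Bnc2-only cells (0.0702 to 0.207), and the Kcnn sum of Nos1-only cells lies below that of Chat-only cells.

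The first comparison asked which channels set nitrergic (Nos1-only) apart from cholinergic (Chat-only) neurons. Pooled levels were compared across the 3 mice with limma on log2(UMIs per 10000 + 0.1), with the mouse as a block. Of the 48 Kcn genes with 50 UMIs or more, 0 passed an adjusted p of 0.05 (Benjamini-Hochberg over 11377 genes, of which 0.0879% passed). At an unadjusted p under 0.05 there were 12, beside 12.2% of all genes, of which 6 were higher and 6 lower in Nos1-only cells. The cholinergic group of mouse 1 was 16 cells, in which 1 UMI is a level of 0.151. limma with voom weights, which give such small sums less weight, called 11 Kcn genes: 2 higher in Nos1-only cells, beside 4.58% of all genes tested, and 9 lower, beside 5.99%. Without mouse 1 the unweighted fit called 17 (7 higher and 10 lower), beside 19.5% of all genes.

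*Kcnj5*, the GIRK4 subunit, is described first, and is named here after its values were seen, as are *Kcnc4*, *Kcnt1*, *Kcnk10*, *Kcnv1* and *Kcnh1*. It was at 0.115, 0.159 and 0.140 UMIs per 10000 in the Nos1-only cells of mice 1, 2 and 3 (136 UMIs) and at 0 UMIs in the Chat-only cells of all 3. Against 3 counts over the group, the level in Nos1-only cells was at least 13.4-fold higher. A UMI was seen in 11.7% of Nos1-only cells (95% exact interval 9.78 to 14, counting error only), in 0 of 277 Chat-only cells (which allows up to 1.08%) and in 3.37% of the cells with 9 or more smooth muscle markers, at median depths of 9094.5, 9676 and 6442 UMIs. At 3000 UMIs the shares were 5.61%, 4.98% and 5.40% in Nos1-only cells and 0% in each mouse of Chat-only cells. *Kcnj5* passed the filter of 50 UMIs only through Nos1-only cells, where it is high, so its values are a description and its call with voom weights adds no support.

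The window of 250 bases before the RefSeq start of *Kcnj5* (GRCm38.p6, chr9:32344345-32344594, minus strand) is shown because this gene gave the clearest contrast of the set. Capitals mark matches, on either strand, to CANNTG (E-box) and GGGCGG (GC box). CCGGAA (ETS core, the motif class of *Etv1*), AACAAT (SOX core), TAATTA (homeodomain core) and TATAAA (a core promoter box) were also searched and are not in this window. Over all 32851 RefSeq windows of this length, 66.2% hold CANNTG, 32.7% GGGCGG, 12% CCGGAA, 9.42% AACAAT, 4.84% TAATTA and 12.4% TATAAA.
Kcnj5: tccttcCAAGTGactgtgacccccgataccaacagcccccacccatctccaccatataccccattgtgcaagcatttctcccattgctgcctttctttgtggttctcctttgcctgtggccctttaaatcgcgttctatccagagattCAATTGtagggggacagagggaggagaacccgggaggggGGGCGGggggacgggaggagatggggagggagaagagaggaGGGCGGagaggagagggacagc

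*Kcnj3* (GIRK1), the usual partner of *Kcnj5*, was at 0.429, 0.223 and 0.216 UMIs per 10000 in Nos1-only cells against 0.151, 0.101 and 0.144 in Chat-only cells. All 3 Nos1-only mice were above all 3 Chat-only mice, and the log2 difference was 0.71 ± 0.25 (SE; limma adjusted p = 0.364, and a log2 difference of 0.53 with limma adjusted p = 0.0333 without mouse 1). The 32 *Kcnj3* UMIs in Chat-only cells are under the filter, so the gene passed only through Nos1-only cells (212 UMIs), where it is high. Its values are a description, and its call without mouse 1 adds no support. *Kcnj6* (GIRK2) overlapped between the groups, with a log2 difference of 0.19 ± 0.22 (SE; limma adjusted p = 0.703), and *Kcnj9* was under the filter of 50 UMIs.

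*Kcnq3* was the other gene called higher with voom weights. It was at 2.85, 2.17 and 2.06 UMIs per 10000 in Nos1-only cells against 3.02, 1.36 and 0.972 in Chat-only cells. It was higher in Nos1-only cells in mice 2 and 3 and not in mouse 1, and the log2 difference was 0.52 ± 0.22 (SE; limma adjusted p = 0.430, and 0.00979 with voom weights). Without mouse 1 it was 0.82 (limma adjusted p = 9.49e-05).

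*Kcnn3*, *Kcnh7* and *Kcnip4* were lower in Nos1-only than in Chat-only cells of the deep mice. *Kcnn3* (SK3, a calcium-activated afterhyperpolarization channel) was at 0.0660, 0.0471 and 0.0616 UMIs per 10000 in Nos1-only cells against 0.151, 0.235 and 0.306 in Chat-only cells, with no overlap. Its log2 difference was -1.04 ± 0.26 (SE; limma adjusted p = 0.234, 0.000222 with voom weights and 4.40e-05 without mouse 1). The 48 *Kcnn3* UMIs in Nos1-only cells are under the filter, so it passed only through Chat-only cells (70 UMIs), where it is high. Its values are a description, and its calls with voom weights and without mouse 1 add no support. *Kcnh7* (ERG3, a channel that resists repetitive firing) was at 0.0825, 0.210 and 0.253 against 0, 0.671 and 0.810. Both deep mice were lower in Nos1-only cells while mouse 1 held no *Kcnh7* UMI in its 16 cells, and the log2 difference was -0.60 ± 0.49 (SE; limma adjusted p = 0.615), -1.61 with voom weights (adjusted p = 0.000155) and -1.34 without mouse 1 (adjusted p = 3.37e-06).

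*Kcnip4*, a calcium-binding subunit of A-type Kv4 channels, was at 0.0825, 0.174 and 0.257 UMIs per 10000 in Nos1-only cells against 0.151, 0.450 and 0.657 in Chat-only cells (log2 difference -0.85 ± 0.24 SE, limma adjusted p = 0.291, 0.000413 with voom weights and 6.59e-05 without mouse 1). The Kv4 pore *Kcnd2* ran the other way, at 0.379, 0.270 and 0.270 against 0, 0.188 and 0.189 (log2 difference 0.99 ± 0.44 SE, limma adjusted p = 0.441, and 0.210 with voom weights), and at a log2 difference of 0.36 without mouse 1 (limma adjusted p = 0.116). For *Kcnip4* each mouse was lower in Nos1-only cells, but mouse 1 set the overlap between groups.

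*Kcnma1* and *Kcnt1* were also lower in Nos1-only cells of the deep mice. *Kcnma1* was at 1.27, 0.760 and 0.958 UMIs per 10000 against 1.06, 1.34 and 1.83 in Chat-only cells (log2 difference -0.45 ± 0.25 SE, limma adjusted p = 0.508, and 0.00728 with voom weights). Without mouse 1 its log2 difference was -0.80 (limma adjusted p = 8.32e-05), and with 2 UMIs asked for a positive cell it turned to 0.70. *Kcnt1* (Slack, opened by sodium) was at 0.181, 0.105 and 0.116 against 0.302, 0.228 and 0.324, with no overlap (log2 difference -0.72 ± 0.24 SE, limma adjusted p = 0.342, 0.00524 with voom weights and 0.00187 without mouse 1). *Kcnq1ot1* was lower in each mouse, at 1.40, 1.43 and 1.83 against 1.81, 2.75 and 3.80 (log2 difference -0.75 ± 0.17 SE, limma adjusted p = 0.194, 0.000344 with voom weights and 7.86e-06 without mouse 1), and it turned to 0.52 with 2 UMIs asked for a positive cell. Among the others called lower with voom weights were *Kcnc4* (a fast Kv3 channel) and *Kcns3* (an electrically silent Kv subunit).

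The promoter of *Kcnh7* is shown as that of a gene higher in Chat-only and in Bnc2-only cells (GRCm38.p6, chr2:63184288-63184537, minus strand, before the RefSeq start). Capitals mark CANNTG and GGGCGG on either strand, and the other motifs searched are not in this window.
Kcnh7: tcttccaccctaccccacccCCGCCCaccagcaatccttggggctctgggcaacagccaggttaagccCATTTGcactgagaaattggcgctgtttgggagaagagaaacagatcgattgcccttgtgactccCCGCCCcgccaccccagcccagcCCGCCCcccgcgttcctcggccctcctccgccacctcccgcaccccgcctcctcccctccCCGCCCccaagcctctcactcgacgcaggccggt

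**Figure D3:**
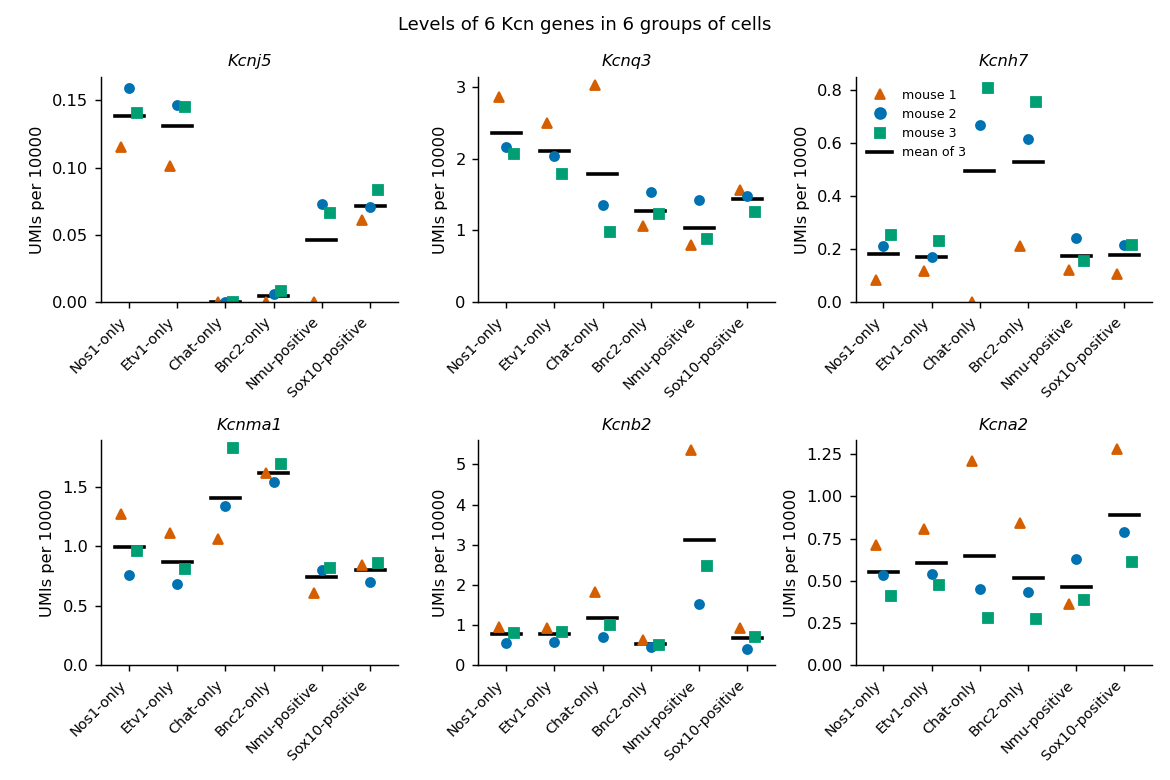
Level of 6 Kcn genes in 6 groups of cells, in UMIs per 10000 UMIs (y axes start at 0 and differ between panels), with a symbol per mouse and a black line for the mean of the 3 mice. Kcnj5 lies at 0 in all 3 mice of Chat-only cells, Kcnb2 is highest in Nmu-positive cells (1.53 to 5.35), and Kcna2 is highest in the Sox10-positive cells of each mouse.

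Sox10-positive cells made up 56.5% of the Nos1-only and 37.9% of the Chat-only cells, and 9 glial markers summed to 10.5 to 13.0 and to 5.10 to 11 UMIs per 10000 in them. With voom weights limma called 4 of 10 glial markers higher in Nos1-only cells and 0 lower. The inward rectifier *Kcnj10* (Kir4.1), which is known from glia, was at 0.297, 0.177 and 0.157 in Nos1-only cells against 0.151, 0.0939 and 0.0630 in Chat-only cells (log2 difference 0.61 ± 0.23 SE, limma adjusted p = 0.384, and 0.0186 without mouse 1). With 162 against 22 UMIs it passed the filter only through Nos1-only cells, so its call without mouse 1 adds no support to the difference. The part of Sox10-positive cells in that difference was not tested. For *Kcnj5* the log2 difference was 1.25 after cells with a *Sox10* UMI or with at least 7 smooth muscle markers were left out, the same as with them. Chat-only cells hold 0 *Kcnj5* UMIs in any subset, so this setting could not turn its direction. Without these cells *Kcnt1* turned to a log2 difference of 0.16, so its direction depended on the cells kept.

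The second comparison set the *Etv1* branch against the *Bnc2* branch, by the transcription factors in place of the transmitter genes. Again 0 Kcn genes passed unweighted, of 49 tested and beside 0.277% of 11548 genes, and 23 had an unadjusted p under 0.05, beside 12.3% of all genes (16 higher and 7 lower in Etv1-only cells). With voom weights limma called 11: 3 higher in Etv1-only cells (*Kcnj5*, *Kcnk10* and *Kcnv1*), beside 3.09% of all genes, and 8 lower, beside 3.03%. Without mouse 1, which had 28 Bnc2-only cells, 31 were called (18 higher and 13 lower), beside 26.1% of all genes, and without mouse 3, 2 were called (*Kcnab1* and *Kcnk10*), beside 1.66%. Smooth muscle markers summed to 138 UMIs per 10000 in the Bnc2-only cells of mouse 1 against 19.5 in its Etv1-only cells, and glial markers to 5.12 to 14.7 and to 11.4 to 15.3 over the 3 mice. Their part in these values was not tested.

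*Kcnj5* was at 0.101, 0.147 and 0.145 UMIs per 10000 in Etv1-only cells against 0, 0.00571 and 0.00833 in Bnc2-only cells. Over the mice these are 140 and 2 UMIs, a ratio of 22.1 (95% exact interval 6.01 to 184, counting error only). *Kcnv1*, an electrically silent Kv subunit, was at 0.0722, 0.0501 and 0.132 against 0, 0.00571 and 0.00833, likewise 2 UMIs (ratio 12, interval 3.21 to 101). Neither gene overlapped between the branches. Both passed the filter of 50 UMIs only through Etv1-only cells, where they are high, so these values are a description and their calls with voom weights add no support.

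*Kcnk10* (TREK-2, a leak channel opened by stretch and lipids) was at 0.404, 0.212 and 0.229 UMIs per 10000 in Etv1-only cells against 0, 0.0629 and 0.05 in Bnc2-only cells. Its log2 difference was 1.47 ± 0.32 (SE; limma adjusted p = 0.169, and 0.0134 with voom weights), and 1.03 without mouse 1 (adjusted p = 5.37e-06). Its 17 UMIs in Bnc2-only cells are under the filter as well, so it too passed through Etv1-only cells alone, and its calls add no support. Between Nos1-only and Chat-only cells *Kcnk10* differed by 1.04 ± 0.46 (SE; limma adjusted p = 0.442, and 0.195 with voom weights), with 212 against 39 UMIs, and by 0.36 without mouse 1 (limma adjusted p = 0.122). *Kcnv1* there was at 64 against 12 UMIs and overlapped between groups. For both genes the values of the 2 comparisons stand side by side, and the difference between the comparisons was not tested.

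Toward Bnc2-only cells, *Kcnma1* was at 1.61, 1.54 and 1.69 UMIs per 10000 against 1.11, 0.684 and 0.812 in Etv1-only cells, with no overlap (log2 difference Etv1-only minus Bnc2-only -0.85 ± 0.17 SE, limma adjusted p = 0.146, 0.00672 with voom weights and 2.38e-10 without mouse 1). *Kcnh7* was at 0.210, 0.617 and 0.758 against 0.116, 0.170 and 0.229 (log2 difference -1.11 ± 0.24 SE, limma adjusted p = 0.174, 0.00142 with voom weights and 1.61e-10 without mouse 1). Each mouse was higher in Bnc2-only cells for both genes. *Kcns3* and *Kcnt1* were likewise without overlap, at 0.140, 0.114 and 0.183 against 0.0433, 0.0367 and 0.0451 for *Kcns3*, and at 0.281, 0.223 and 0.325 against 0.159, 0.102 and 0.116 for *Kcnt1*. Among the others called lower in Etv1-only cells with voom weights were *Kcnip4*, *Kcnc4* and *Kcnh1*.

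*Kcnq3* did not overlap between the branches, at 2.50, 2.03 and 1.79 UMIs per 10000 in Etv1-only cells against 1.05, 1.54 and 1.22 (log2 difference 0.69 ± 0.19 SE, limma adjusted p = 0.252, and 0.0886 with voom weights), and the log2 difference was 0.45 without mouse 1 (limma adjusted p = 0.000309). *Kcnn3* overlapped here (log2 difference -0.37 ± 0.24 SE, limma adjusted p = 0.578), and was at -0.62 without mouse 1 (limma adjusted p = 0.00398). *Kcnab1*, a cytoplasmic subunit of Kv1 channels, was at 0.607, 0.300 and 0.209 against 0.0702, 0.126 and 0.133 (log2 difference 1.10 ± 0.34 SE, limma adjusted p = 0.308), and at a log2 difference of 0.62 without mouse 1 (limma adjusted p = 0.00422). With 287 against 39 UMIs it passed the filter only through Etv1-only cells, where it is high, so its calls add no support.

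**Figure D4:**
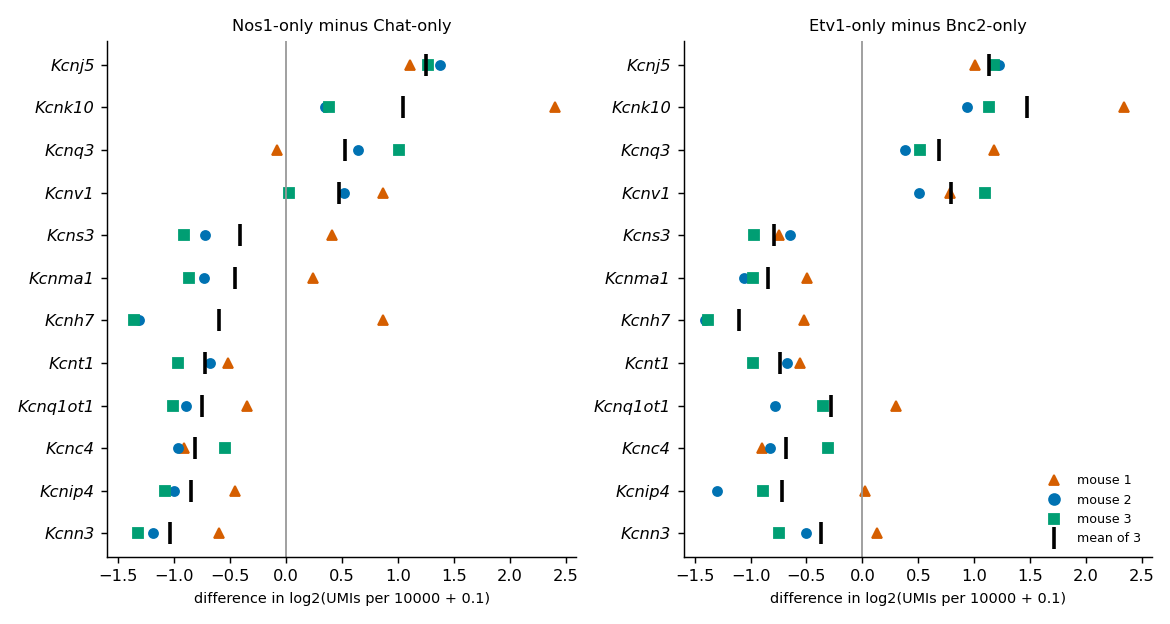
Difference within each mouse in log2(UMIs per 10000 + 0.1), Nos1-only minus Chat-only (left) and Etv1-only minus Bnc2-only (right), for 12 Kcn genes tested in both comparisons and called by voom weights in at least 1, with a symbol per mouse and a black tick for the mean. Kcnj5 lies above 0 in all mice of both panels, and mouse 1 stands apart on the left for Kcnk10 and Kcnh7.

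The third comparison set Nmu-positive cells against all other cells of the same mice. *Kcnb2*, the Kv2.2 delayed rectifier, was at 5.35, 1.53 and 2.47 UMIs per 10000 in Nmu-positive cells against 0.698, 0.488 and 0.567 in Nmu-zero cells. Every Nmu-positive mouse was above every Nmu-zero mouse, and mouse 1 was the highest, as it was for the other sensory markers. In mice 1, 2 and 3 neuronal markers summed to 137, 74.0 and 77.9 in Nmu-positive cells against 67.2, 68.6 and 62.8 in Nmu-zero cells. Glial markers summed to 4.01, 11.2 and 9.69 against 15.2, 12.4 and 10.7. Smooth muscle markers summed to 29.3, 20.6 and 16.7 against 70.3, 15.6 and 9.96. The part of these differences in the *Kcnb2* values was not tested. Which cells of this mixed group carry *Kcnb2* was not tested either. The log2 difference was 2.06 ± 0.26 (SE), a 4.18-fold higher level on the log2(value + 0.1) scale, with an unadjusted p of 8.81e-05 and a limma adjusted p of 0.0978. In this fit 0 of 51 Kcn genes passed, beside 0.00819% of 12210 genes, and 9 had an unadjusted p under 0.05, beside 6.89% of all genes.

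With voom weights *Kcnb2* was the 1 Kcn gene called (log2 difference 2.17 ± 0.20 SE, limma adjusted p = 1.86e-05), beside 1.02% of all genes. Without mouse 1 it was again the 1 gene called, at a log2 difference of 1.71 (limma adjusted p = 1.79e-05), beside 0.79% of all genes. At 3000 UMIs it was seen in 55.2%, 21.8% and 25.3% of Nmu-positive cells and in 13.0%, 13.5% and 16.5% of Nmu-zero cells. In the thinned cells of the class with 9 or more smooth muscle markers it was seen in 11.4%, 0% and 16.7%.

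Other contrasts of Nmu-positive cells did not pass. *Kcnn3* was higher without overlap, at 0.608, 0.218 and 0.188 UMIs per 10000 against 0.162, 0.0808 and 0.136 (limma adjusted p = 0.650, and 0.153 with voom weights). *Kcnk2* was at 2.55, 0.691 and 0.839 against 0.823, 0.457 and 0.643, higher within each mouse and widest in mouse 1, with a log2 difference of 0.79 that was 0.42 without mouse 1. *Kcnq3* was lower without overlap, at 0.790, 1.42 and 0.872 against 1.87, 1.71 and 1.5 (limma adjusted p = 0.650, and 0.317 with voom weights). *Kcnma1*, *Kcnj3* and *Kcna6* were also lower with no overlap, at log2 differences of -0.48, -0.52 and -0.51 (limma adjusted p = 0.650 each), and at -0.28, -0.42 and -0.33 without mouse 1.

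The fourth comparison set Sox10-positive cells against cells with no *Sox10* UMI, all from the table of neurons. Of 51 Kcn genes, 13 passed in the unweighted limma fit. In Sox10-positive cells 7 rose, beside 3.34% of 12210 genes, and 6 fell, beside 2.25%. Of the 9 glial markers tested, 8 were called higher and 0 lower, and their sum was 22.0, 17.1 and 15.0 UMIs per 10000 in Sox10-positive cells against 7.96, 5.64 and 4.02. Neuronal markers summed to 58.6, 62.1 and 57.9 against 86.7, 78.8 and 75.5. Sox10-positive cells thus kept neuronal RNA at a lower level and held more glial RNA, and the part of glial RNA in the channel differences was not tested. The mix of neurons differed too: 56.5% of Nos1-only and 57.4% of Etv1-only cells were Sox10-positive, against 37.9% of Chat-only and 38.9% of Bnc2-only cells. The part of this mix was not tested either. Sox10-positive cells were also deeper in mice 2 and 3, with medians of 10720.5 and 10072.5 UMIs against 8731.5 and 8560.5.

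Among the genes that rose were 3 Kv1 channels. *Kcna1* (Kv1.1) was at 0.701, 0.388 and 0.273 UMIs per 10000 in Sox10-positive cells against 0.138, 0.0838 and 0.0545, a log2 difference of 1.48 ± 0.14 (SE; limma adjusted p = 0.00100). *Kcna2* (Kv1.2) was at 1.28, 0.787 and 0.608 against 0.506, 0.252 and 0.238 (log2 difference 1.20 ± 0.11 SE, limma adjusted p = 0.000966). *Kcna6* (Kv1.6) was at 0.473, 0.519 and 0.445 against 0.322, 0.233 and 0.226 (log2 difference 0.69 ± 0.13 SE, limma adjusted p = 0.0219). For each of the 3 genes every Sox10-positive mouse was above every Sox10-zero mouse, the same mice on which they were called. At 3000 UMIs *Kcna1* was seen in 10.5% ± 3.41 of Sox10-positive and 2.10% ± 1.18 of Sox10-zero cells (SD, n = 3), and in 0%, 4% and 8.33% of the cells with 9 or more smooth muscle markers in mice 1, 2 and 3.

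*Kcnj10* was at 0.518, 0.239 and 0.192 UMIs per 10000 against 0.149, 0.0838 and 0.0545 (log2 difference 1.04 ± 0.14 SE, limma adjusted p = 0.00538). The BK subunit *Kcnmb4* was at 0.427, 0.503 and 0.437 against 0.195, 0.231 and 0.187 (log2 difference 0.87 ± 0.12 SE, limma adjusted p = 0.00530), while its pore *Kcnma1* fell. *Kcnh8* (ELK3) and *Kcnk5* (TASK-2, opened by alkaline pH) rose by log2 differences of 0.81 ± 0.16 and 0.67 ± 0.13 (SE; limma adjusted p = 0.0243 and 0.0213), and *Kcnk5* passed the filter only through Sox10-positive cells (81 against 14 UMIs). All 7 genes that rose did so in each mouse and without overlap, which adds no support because they were called on these mice.

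Promoter windows of *Kcnj10* (GRCm38.p6, chr1:172340960-172341209, plus strand) and *Kcna6* (chr6:126740675-126740924, minus strand) are shown as those of genes higher in Sox10-positive cells. The RefSeq table used here gave no window for *Kcna1*. Capitals mark GGGCGG on either strand, which is in the *Kcnj10* window. No motif searched, AACAAT (SOX core) included, is in the *Kcna6* window, which says only that these letters are not there.
Kcnj10: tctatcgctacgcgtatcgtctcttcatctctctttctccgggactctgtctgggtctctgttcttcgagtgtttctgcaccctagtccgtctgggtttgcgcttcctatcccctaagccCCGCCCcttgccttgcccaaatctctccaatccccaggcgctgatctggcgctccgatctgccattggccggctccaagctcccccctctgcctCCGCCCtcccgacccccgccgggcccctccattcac
Kcna6: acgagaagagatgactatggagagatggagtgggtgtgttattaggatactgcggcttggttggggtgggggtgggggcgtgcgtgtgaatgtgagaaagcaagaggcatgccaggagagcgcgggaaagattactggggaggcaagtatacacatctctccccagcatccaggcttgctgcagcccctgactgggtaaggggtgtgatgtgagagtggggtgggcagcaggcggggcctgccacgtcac

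Among the 6 genes that fell in Sox10-positive cells were calcium-activated, delayed rectifier and inward rectifier channels. *Kcnn3* was at 0.0762, 0.0610 and 0.0832 UMIs per 10000 against 0.310, 0.135 and 0.234 (log2 difference -0.88 ± 0.16 SE, limma adjusted p = 0.0171). *Kcnma1* was at 0.838, 0.699 and 0.861 against 1.38, 1.11 and 1.46 (log2 difference -0.65 ± 0.10 SE, limma adjusted p = 0.00786). *Kcnb2* and *Kcnj12* each fell by 0.65 on the log2 scale (limma adjusted p = 0.0157 and 0.0205). All 4 were lower in each mouse, which adds no support because they were called on these mice, and *Kcnb2* and *Kcnj12* overlapped between the groups. *Kcnq3* and *Kcnd2* were lower without overlap but did not pass (limma adjusted p = 0.0763 and 0.0867, and 0.00723 and 0.0213 without mouse 1).

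**Figure D5:**
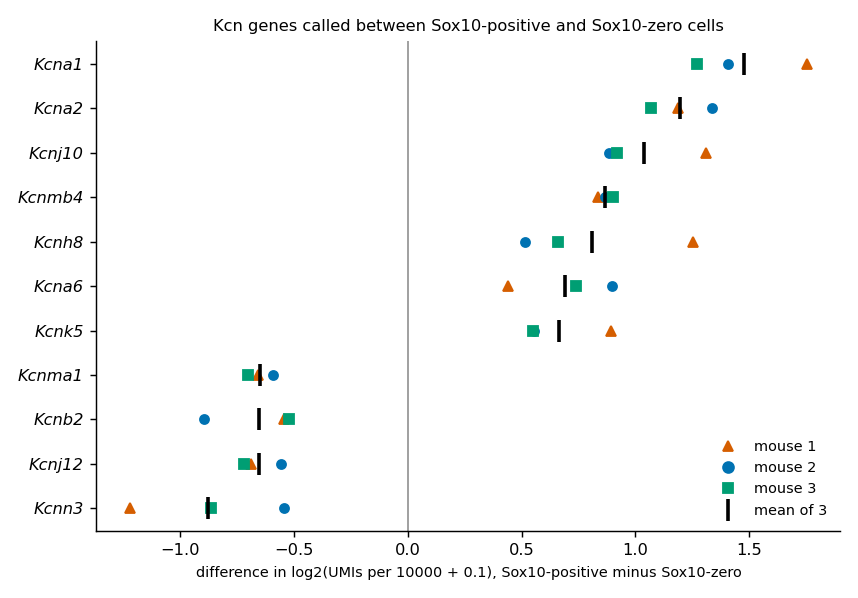
Difference within each mouse in log2(UMIs per 10000 + 0.1), Sox10-positive minus Sox10-zero cells, for 11 of the 13 Kcn genes called by limma, with a symbol per mouse and a black tick for the mean. The 7 genes at the top lie above 0 and the 4 at the bottom below 0 in all 3 mice, the same mice on which they were called.

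The number of calls depended on mouse and depth. Without mouse 1, 23 Kcn genes were called (7 higher and 16 lower), beside 20.1% of all genes, and with voom weights 22 (7 higher and 15 lower), beside 13.5%. Without mouse 2, 7 were called, beside 4.21% of all genes; *Kcna6*, *Kcnb2* and *Kcnj12* then had limma adjusted p = 0.144, 0.134 and 0.0658. *Kcnj12* also did not pass without mouse 3 (limma adjusted p = 0.0607). Without the mouse as a block 0 were called, beside 0% of all genes. When every cell was thinned to 3000 UMIs, 3 were called, beside 2.99%: *Kcna1*, *Kcna2* and *Kcnmb4*, all higher in Sox10-positive cells.

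A list of 15 channel partners was read beside the members: Kv4 partners (*Dpp6*, *Dpp10*), a Kv2 partner (*Amigo1*), Kv1 clustering proteins (*Cntn2*, *Cntnap2*, *Adam22*, *Lgi1*, *Dlg2*, *Dlg4*), BK subunits (*Lrrc26*, *Lrrc38*, *Lrrc52*, *Lrrc55*) and the sulphonylurea receptors of ATP-sensitive channels (*Abcc8*, *Abcc9*). Of these, 10 or 11 could be tested, and *Lrrc26*, *Lrrc38* and *Lrrc52* were at 0 in each group compared. In Sox10-positive cells 2 fell, beside 2.25% of all genes. They were *Dpp6* and *Dlg2*, with log2 differences of -0.46 ± 0.10 and -0.58 ± 0.10 (SE; limma adjusted p = 0.0336 and 0.0154). With voom weights 6 partners were lower there and 0 higher, beside 13.5% of all genes called in either direction. So the Kv1 pores *Kcna1*, *Kcna2* and *Kcna6* rose there while the Kv1 clustering protein *Dlg2* fell. The other Kv1 clustering proteins were also lower in the unweighted fit but did not pass (limma adjusted p = 0.0718 to 0.272). In the other comparisons 0 partners passed unweighted. With voom weights 3 were lower in Nos1-only than in Chat-only cells, *Abcc8*, *Dlg4* and *Dlg2*, beside 5.99% of all genes. Between Etv1-only and Bnc2-only cells 0 were called. *Cntnap2* was higher in Nmu-positive cells (limma adjusted p = 0.0493), beside 1.02% of all genes called in either direction.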

How the data were processed

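Single-cell RNA was read from 3 libraries, 1 per mouse. The authors deposited natural log values, ln(1 + UMIs × 10000 / total UMIs of the cell), after Cell Ranger against mm10. The Cell Ranger version, its annotation and whether counting used strand are not given in the sources used here. UMIs were recovered from these values: 100% of 6435281 values above 0 came out whole within a relative tolerance of 1e-06. The listed genes leave out 1.90 to 34.0% of a cell's UMIs (median 12.7%), and levels use the full total.

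The genes and lists were chosen with earlier results of these data known. Named genes were the 20 highest Kcn genes in all cells, the genes called in each comparison (up to 10 in each direction), the highest gene of each subfamily, the genes at 0 UMIs, and *Kcnd2*, *Kcnj10* and *Kcnmb1*. Partner genes were named by the same rule when called. Some genes that the rule selects are not reported here, though they stay in the counts and sums. Any other gene was named after its values were seen. UMIs were summed per mouse and group, defining genes were set aside, and genes with 50 UMIs or more over both groups were fitted with limma 3.58.1 (R 4.3.3) on log2(UMIs per 10000 + 0.1) with the mouse as a block, which is the animal both groups came from. The threshold was a Benjamini-Hochberg adjusted p of 0.05 over all genes tested. The fits were checked on simulated data with 200 genes changed 4-fold: 132 of 200 were recovered between Nos1-only and Chat-only cells, 180 between Etv1-only and Bnc2-only, 175 for Nmu and 195 for Sox10, with 0, 0, 0 and 2 false calls. The simulated noise was an assumed setting, alike for every gene, and many differences above are smaller than 4-fold. These counts are therefore not the error rates of the fits on the real data.

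Scrublet (expected rate 0.06) marked 10 cells (0.485%), which were kept. For thinned values each cell was drawn down to 3000 UMIs, and 178 cells below that were left out. Shares carry exact 95% binomial intervals and zeros a limit of 3 counts, for counting error only. Promoter windows were matched by symbol to 72 of the 99 genes.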

Additional observations from a re-analysis of the deposited data

How the results depend on the processing

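Each count of Kcn genes called is a limma count. The counts show only how the calls moved with the setting. Where no share of all genes is given for a setting above, its count is no result about Kcn genes. Between Nos1-only and Chat-only cells, where 0 were called, 1 was called when 2 UMIs were asked for a positive cell, 11 with voom weights and 0 to 17 when each mouse was left out. Between Etv1-only and Bnc2-only cells the count of 0 became 11 with voom weights and 0 to 31 by mouse left out. For Nmu-positive cells it became 7 at 2 UMIs, 1 after thinning, 1 with voom weights, 1 without smooth muscle and Sox10 cells and 1 by each mouse left out. For Sox10-positive cells 13 became 3 after thinning, 4 with a filter of 1 UMI, 0 with no replicate block, that is without the pairing by mouse, 22 with voom weights and 7 to 23 by mouse left out. The block changed no other count of calls. Leaving out the cells with shared barcodes, an alternative chosen after seeing the data, gave 0, 0, 0 and 13.

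The summed Kcn level of 15.8 UMIs per 10000 became 16.8 after thinning, 18.4 over the listed genes' total and 18.0 without smooth muscle and Sox10 cells; these were also chosen after seeing the data.

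Directions turned between Nos1-only and Chat-only cells for *Kcnma1* (0.70) and *Kcnq1ot1* (0.52) at 2 UMIs and for *Kcnt1* (0.16) without smooth muscle and Sox10 cells. The cause was not tested. Among the alternatives for the single genes named, 564 kept direction and side of the threshold, 73 newly passed, 32 no longer passed and 3 turned. In the 16 Chat-only cells of mouse 1, 1 UMI is a level of 0.151 UMIs per 10000, which sets the precision there.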
